A study of Rattus norvegicus with 16 samples.

Results

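The genes described here are 8 general markers of macrophages and monocytes, taken by name from the deposited tables: Cd68, Cd14, Lyz2, Csf1r, Mrc1, Cd163, Aif1 and Adgre1. A row was found for 7 of the 8, and the expression of Adgre1 was not analysed here. All 7 passed the filter on low counts, among 11376 tested genes of 17085. The set was named for the cells the genes mark, not for how they moved, although earlier results on these data were known when it was drawn up. Bulk RNA sequencing measured the infarct zone of hearts from rats, with 16 libraries in 4 groups of 4. Sham rats had control surgery without ligation, and their tissue carries the same tissue label as the others. MI rats had the left anterior descending coronary artery tied off. MI_soft and MI_stiff rats had the same ligation and were treated with a hydrogel, soft in one group and stiff in the other; such gels are polymer networks that hold much water, and the series title says that they were injected into the myocardium. The protocol for RNA extraction writes MI/R, which often stands for reperfused infarction, and no source used here says if flow was restored. The sources also leave out strain, sex, age, the gel material and the time from ligation to sampling. The labels do not tie each library to its own animal, and the spread behind the p-values may in part be technical.

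Macrophages are phagocytes that live in the healthy heart as a self-renewing population and, after an infarct, also arise from blood monocytes that enter the damaged wall. They clear dead muscle cells and matrix, release inflammatory signals and growth factors, and take part in forming the scar. Their identity depends on signalling through the receptor encoded by Csf1r and on the transcription factor PU.1, the product of Spi1. In bulk tissue, a change in the number of such cells and a change in RNA per cell cannot be told apart.

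The libraries held 10940685 to 14456186 counts each. Genes with a count numbered 10470 in MI 2, 10958 in MI 3, 11283 in MI 4 and 11785 in MI_soft 4, against 12019 to 12820 in the other libraries, and MI 1 had the 12820. The MI group is therefore 3 libraries of low detection and 1 that stands apart from them. Counts of members called are given with and without MI 1. Some list counts and values that also change without MI 1 are given with all libraries only. Mitochondrially encoded genes took 25.12% to 50.48% of the counts. Cardiomyocyte markers were present in every library, with a summed level of 26610 to 38990 TPM in Sham and 11530 to 23900 TPM in the ligated groups. TPM scales a level by gene length and depth and is used below for levels.

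The promoters of the set were read to see whether the members share sequence at the gene start. RefSeq promoter entries (assembly GRCr8, another build than the one used for the counts) matched 7 of the 8 members, Adgre1 among them and Aif1 not. Each window was the 250 bases before the annotated start, read 5′ to 3′ on the gene's strand. The purine-rich core of PU.1 sites, GAGGAA or its complement TTCCTC, was found on either strand in 6 of these 7 windows and in 23.3% of all 33469 promoters of that length. Cd163 was the window without it. The C/EBP-type pattern TTNNGNAA was found in all 7 windows and in 37.2% of all promoters, and the AP-1 pattern TGANTCA in the Cd68 window alone and in 6.34% of all. The TATAAA box was found in 0 of the 7 and in 12.9% of all. The 4 patterns were searched separately, so matches may overlap, and they are a description of letters, not of bound sites. The windows of 4 members are shown for how far their genes rose over Sham. Lyz2 and Cd68 were at the upper end, and Mrc1 and Cd163 at the lower end in MI and MI_soft. In MI_stiff, Csf1r rose less than Mrc1. Capitals mark the PU.1 core.
Lyz2 (chr7:54798012-54798261, minus strand): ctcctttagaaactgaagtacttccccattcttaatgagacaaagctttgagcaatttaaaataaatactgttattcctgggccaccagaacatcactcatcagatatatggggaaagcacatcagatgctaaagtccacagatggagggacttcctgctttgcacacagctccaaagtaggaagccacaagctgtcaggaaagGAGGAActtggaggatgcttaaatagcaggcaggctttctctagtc
Cd68 (chr10:54882442-54882691, minus strand): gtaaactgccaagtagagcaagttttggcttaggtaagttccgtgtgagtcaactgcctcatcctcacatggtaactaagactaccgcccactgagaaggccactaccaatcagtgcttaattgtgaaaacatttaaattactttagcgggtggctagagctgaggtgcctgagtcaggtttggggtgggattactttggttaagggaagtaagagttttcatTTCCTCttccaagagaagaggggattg
Mrc1 (chr17:82157475-82157724, plus strand): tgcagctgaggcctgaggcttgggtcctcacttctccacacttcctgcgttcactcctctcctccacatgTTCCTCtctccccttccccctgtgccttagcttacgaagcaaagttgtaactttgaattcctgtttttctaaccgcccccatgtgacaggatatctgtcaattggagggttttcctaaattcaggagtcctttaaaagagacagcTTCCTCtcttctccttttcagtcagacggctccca
Cd163 (chr4:158770524-158770773, plus strand): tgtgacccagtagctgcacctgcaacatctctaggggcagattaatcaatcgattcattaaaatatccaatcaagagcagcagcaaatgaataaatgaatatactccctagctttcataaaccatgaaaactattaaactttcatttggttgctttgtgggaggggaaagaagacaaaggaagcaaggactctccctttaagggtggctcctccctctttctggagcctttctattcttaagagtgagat

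Every one of the 7 markers had a higher mean level in the 3 ligated groups than in Sham. Differences between groups are given as log2 differences of normalised counts ± standard error (SE) from edgeR's quasi-likelihood fit over all 16 libraries, with Benjamini-Hochberg adjustment of p-values across the tested genes, and a gene was called at an adjusted p under 0.05. In MI against Sham, 6 of 7 rose, Mrc1 being the exception, against a background of 20.2% of all tested genes called higher. In MI_soft and in MI_stiff against Sham, 7 of 7 rose, with backgrounds of 16.4% and 12.7%. Without MI 1, 4 of 7 were called in MI, and still 7 of 7 in each gel group. In that setting 2293, 1864 and 1563 of 11528 tested genes were called higher in MI, MI_soft and MI_stiff. The median log2 difference of the 7 was 2.42 in MI, 3.06 in MI_soft and 2.71 in MI_stiff, beside medians of 0.06, 0.01 and 0.02 over all tested genes. These 3 comparisons share the Sham libraries and are set side by side only. In TPM, ligated libraries lay wholly above Sham for 5 of 7 members in MI, 6 in MI_soft and 7 in MI_stiff. The same held for 19.1%, 22.9% and 26.3% of all tested genes. In normalised counts scaled to a common total (CPM), Mrc1 also lay wholly above Sham in MI.

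**Figure D1:**
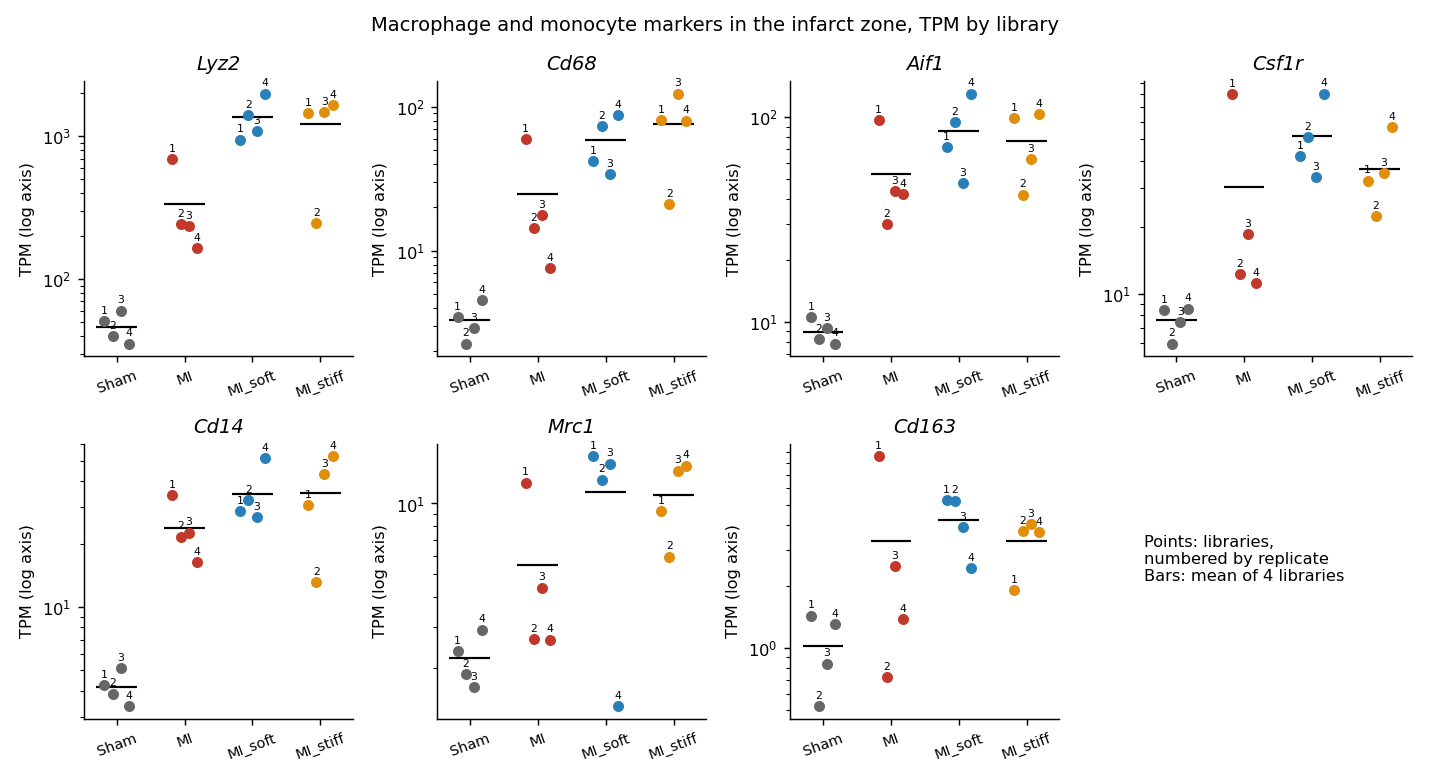
Level of each of the 7 markers by library, in TPM on a log axis; points are single libraries numbered by replicate and bars are means of 4 libraries. MI 1 is the highest MI library in every panel, MI_stiff 2 is the lowest MI_stiff library in every panel but Cd163, and Mrc1 in MI_soft 4 (1.38 TPM) lies below all Sham libraries.

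Csf1r encodes the receptor for the growth factors CSF1 and IL-34, on which monocytes and macrophages depend. In Sham libraries 1 to 4 it stood at 8.47, 5.96, 7.45 and 8.58 TPM, and in MI libraries 1 to 4 at 79.99, 12.33, 18.55 and 11.19 TPM. MI_soft libraries held 42.03, 51.05, 33.68 and 80.35 TPM, and MI_stiff libraries 32.49, 22.37, 35.14 and 56.45 TPM. No ligated library came down to the Sham range, and MI 1 reached the level of the highest MI_soft library while the other MI libraries stayed below all gel-treated ones. Group means ± SD (n = 4) ran from 7.62 ± 1.22 in Sham through 30.5 ± 33.1 in MI and 36.6 ± 14.3 in MI_stiff to 51.8 ± 20.3 TPM in MI_soft. The log2 difference from Sham was 1.64 ± 0.45 in MI (edgeR adjusted p = 0.00834), 1.87 ± 0.45 in MI_stiff (0.00647) and 2.72 ± 0.46 in MI_soft (0.000371). Without MI 1 the MI difference was 0.85 and was no longer called (adjusted p = 0.0596). The neighbours in this order after Sham, MI and MI_stiff, and MI_stiff and MI_soft, did not differ past the threshold (edgeR adjusted p = 0.828 and 0.384).

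Cd14 encodes the surface receptor that hands bacterial lipopolysaccharide and similar ligands to Toll-like receptor 4, and is the classic marker of blood monocytes. Its level was 4.25, 3.87, 5.11 and 3.36 TPM in Sham libraries 1 to 4 and 34.44, 21.73, 22.69 and 16.43 TPM in MI. With soft gel it was 28.79, 32.49, 26.84 and 51.31 TPM, and with stiff gel 30.82, 13.18, 43.09 and 52.6 TPM. The MI libraries agreed more closely for Cd14 than for the other members, with a highest level 2.10 times the lowest, and MI_stiff 2 was the lowest of all 12 ligated libraries. Mean levels (± SD, n = 4) were 4.15 ± 0.738 TPM for Sham, 23.8 ± 7.60 for MI, 34.9 ± 11.2 for MI_soft and 34.9 ± 17.0 for MI_stiff. Cd14 rose over Sham by 2.42 ± 0.36 in MI (edgeR adjusted p = 8.1e-05), 3.06 ± 0.37 in MI_soft (1.44e-05) and 2.71 ± 0.36 in MI_stiff (5.57e-05), on the log2 scale. Among the ligated groups the neighbours in level, MI with MI_soft (0.375) and MI_soft with MI_stiff (0.645), were not separated by the test.

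Lyz2 encodes lysozyme, a bacteriolytic enzyme stored and secreted by macrophages, monocytes and neutrophils. It was the most abundant member in every library: Sham libraries held 50.48, 39.78, 60 and 35.22 TPM, and MI libraries 691.49, 242.81, 234.58 and 165.66 TPM. MI_soft libraries held 948.99, 1404, 1089 and 1998 TPM, and MI_stiff libraries 1464, 247.34, 1488 and 1657 TPM. All 4 MI_soft libraries were above all MI libraries, the one member for which these groups did not overlap (0.888% of all tested genes had MI_soft wholly above MI). In MI_stiff, 3 libraries were in the MI_soft range and MI_stiff 2 was at the level of MI 2 and MI 3. Ranked by mean TPM among all genes with a row, Lyz2 went from place 1176 in Sham to 245 in MI, 65 in MI_stiff and 62 in MI_soft. Means were 46.4 ± 11.1, 334 ± 241, 1214 ± 650 and 1360 ± 466 TPM in Sham, MI, MI_stiff and MI_soft (SD, n = 4). The log2 difference from Sham was 2.65 ± 0.48 in MI (edgeR adjusted p = 0.000442), 4.88 ± 0.53 in MI_soft (5.97e-06) and 4.39 ± 0.52 in MI_stiff (1.82e-05).

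Cd68 encodes a heavily glycosylated protein of the late endosome and lysosome membrane and is the most used tissue stain for macrophages. Sham libraries 1 to 4 held 3.46, 2.25, 2.9 and 4.5 TPM, and MI libraries 59.48, 14.28, 17.63 and 7.54 TPM. Levels were 42.0, 73.81, 34.09 and 87.23 TPM with soft gel and 81.1, 20.96, 123.88 and 80.28 TPM with stiff gel. Every ligated library exceeded every Sham library, and within the ligated groups MI 1 and MI_stiff 2 each lay inside the range of another group. Means rose in the order Sham (3.28 ± 0.953 TPM), MI (24.7 ± 23.5), MI_soft (59.3 ± 25.3) and MI_stiff (76.6 ± 42.3; SD, n = 4). Against Sham the log2 difference was 2.67 ± 0.54 in MI (edgeR adjusted p = 0.00111), 4.21 ± 0.57 in MI_soft (4.98e-05) and 4.24 ± 0.57 in MI_stiff (5.78e-05). Without MI 1 the MI difference was 2.08 and was still called. The steps from MI to MI_soft (0.184) and from MI_soft to MI_stiff (0.977) did not pass the threshold.

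Aif1 encodes IBA1, a calcium-binding protein that bundles actin at the ruffling edge of macrophages and microglia. It stood at 10.52, 8.23, 9.32 and 7.83 TPM in Sham and at 96.68, 29.94, 43.42 and 42.11 TPM in MI libraries 1 to 4. Soft-gel libraries held 71.53, 94.24, 47.74 and 130.52 TPM, and stiff-gel libraries 99.06, 41.92, 62.3 and 103.77 TPM. The lowest ligated library, MI 2, was above the highest Sham library, while all 3 ligated groups overlapped one another. Means were 8.98 ± 1.21, 53.0 ± 29.7, 76.8 ± 29.7 and 86.0 ± 35.2 TPM in Sham, MI, MI_stiff and MI_soft (SD, n = 4). The log2 differences from Sham were 2.42 ± 0.40, 2.82 ± 0.41 and 3.27 ± 0.41 in MI, MI_stiff and MI_soft (edgeR adjusted p = 0.000211, 0.00011 and 2.38e-05). Neighbouring ligated groups were not separated (MI_stiff against MI 0.61, MI_stiff against MI_soft 0.587).

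Mrc1 encodes CD206, the mannose receptor, an endocytic receptor for mannose-ended glycoproteins that is abundant on resident tissue macrophages. Sham libraries had 2.36, 1.89, 1.67 and 2.92 TPM, and MI libraries 12.25, 2.67, 4.4 and 2.65 TPM. In MI_soft the levels were 15.86, 12.62, 14.76 and 1.38 TPM, and in MI_stiff 9.25, 5.95, 13.79 and 14.47 TPM. In TPM, MI 2 and MI 4 lay within the Sham range. MI_soft 4, which had the highest Lyz2 and Csf1r levels of its group, was below every Sham library in TPM. In CPM, MI 2 (16.25) and MI 4 (17.49) lay above the highest Sham library (15.45). MI_soft 4 (9.78) lay above Sham 3 (9.01) on that scale. Group means were 2.21 ± 0.554 in Sham, 5.49 ± 4.58 in MI, 10.9 ± 4.01 in MI_stiff and 11.2 ± 6.65 TPM in MI_soft (SD, n = 4). The MI difference, 1.09 ± 0.46 on the log2 scale, was not called (edgeR adjusted p = 0.0693). Without MI 1 it was 0.61 (adjusted p = 0.284), and without MI_soft 4 it was 1.11 and was called (0.00671). Mrc1 rose in MI_soft by 2.10 ± 0.47 (0.00313) and in MI_stiff by 1.96 ± 0.46 (0.00587) over Sham. The gel-treated groups were not separated from MI (0.294 and 0.333) or from each other (0.905).

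Cd163 encodes the scavenger receptor that takes up haemoglobin bound to haptoglobin. It was the least abundant member in 15 of the 16 libraries by TPM, with 1.44, 0.52, 0.84 and 1.31 TPM in Sham and 8.61, 0.72, 2.52 and 1.39 TPM in MI. MI_soft libraries held 5.27, 5.23, 3.87 and 2.46 TPM, and MI_stiff libraries 1.91, 3.73, 4.01 and 3.68 TPM. The gel-treated libraries all exceeded Sham, and MI 1 had the highest level of all 16. In TPM, MI 2 and MI 4 were in the Sham range. In CPM, MI 4 (7.38) lay above the highest Sham library (6.18), and MI 2 (4.1) was in the Sham range. Means were 1.03 ± 0.425, 3.31 ± 3.61, 3.33 ± 0.959 and 4.21 ± 1.33 TPM in Sham, MI, MI_stiff and MI_soft (SD, n = 4). Cd163 rose over Sham by 1.44 ± 0.45 in MI (edgeR adjusted p = 0.0184), 1.94 ± 0.45 in MI_soft (0.00464) and 1.39 ± 0.45 in MI_stiff (0.0344). The MI call was lost without MI 1 (log2 difference 0.72, adjusted p = 0.136), without Sham 2 (0.0538) and without Sham 3 (0.0555). The MI_stiff call was lost without Sham 2 (0.0918), Sham 3 (0.0955), MI_stiff 2 (0.083), MI_stiff 3 (0.0733) or MI_stiff 4 (0.0574).

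**Figure D2:**
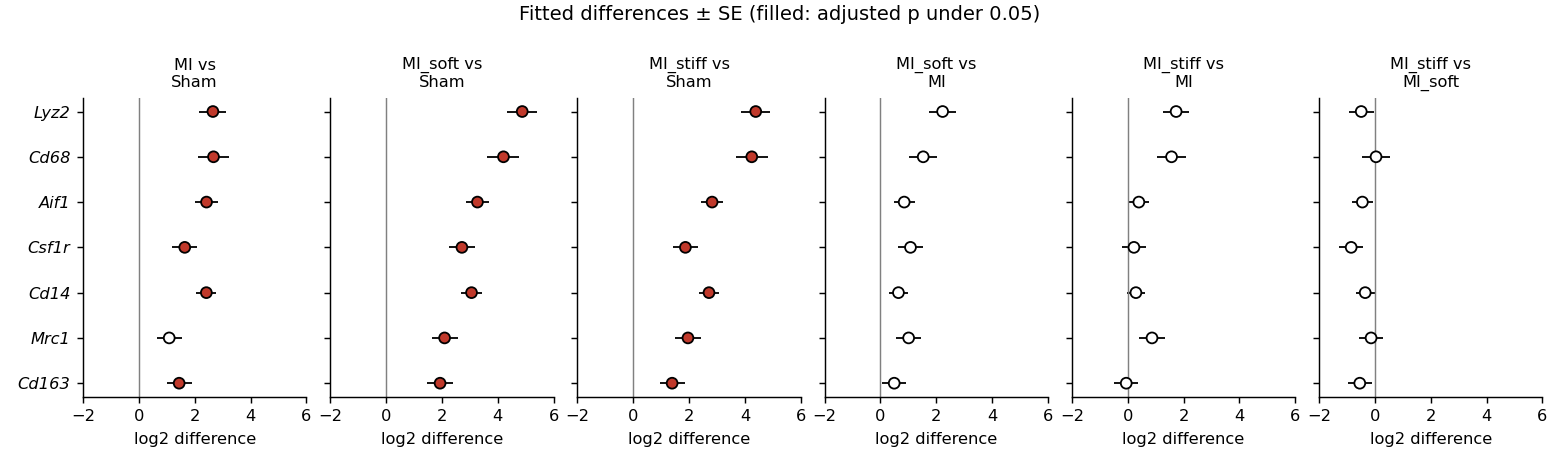
Log2 difference ± SE of each marker in the 6 comparisons from the edgeR fit over 16 libraries; filled points have an adjusted p under 0.05. All markers but Mrc1 in MI are called against Sham, and no point is filled in the 3 comparisons among ligated groups.

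Hydrogel treatment was then compared with untreated infarct. In MI_soft against MI, 0 of 7 members were called by edgeR, where 0.0264% of all tested genes were called in either direction. An unadjusted edgeR p under 0.05 was found for 5 members, the largest being 0.0378 for Mrc1. By p-value, Mrc1 was in place 1463 of the 11376 tested genes, so at least that many genes passed that mark. All 7 fitted differences were positive, with a median of 1.01 against 0.05 over all tested genes. Lyz2 had the largest, 2.23 ± 0.47 on the log2 scale (95% interval 1.23 to 3.22, adjusted p = 0.0914), followed by Cd68 at 1.53 ± 0.50 (0.47 to 2.59, adjusted p = 0.184). Csf1r stood at 1.07 ± 0.44, Mrc1 at 1.01 ± 0.45, Aif1 at 0.85 ± 0.38, Cd14 at 0.64 ± 0.34 and Cd163 at 0.49 ± 0.44, the last with an interval of -0.42 to 1.41. DESeq2 called 1 of the 7 and 2.39% of all genes it tested, and limma-voom with sample weights 2 of the 7 and 3.58% of all genes. Leaving out MI 1 brought 4 calls in edgeR, namely Lyz2 (2.55, adjusted p = 0.00575), Cd68 (2.08, 0.0173), Csf1r (1.83, 0.00529) and Mrc1 (1.42, 0.0483). In that setting 13.1% of all tested genes were called. Leaving out MI 2, MI 3, MI 4 and MI_soft 4 instead, so that MI 1 alone stood for its group and was assumed to vary like the others, gave 1.04 for Lyz2, 0.08 for Cd68, 0.52 for Mrc1 and -0.62 for Csf1r, with 0 calls.

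In MI_stiff against MI, 0 of 7 were called by edgeR, beside 1.19% of all tested genes, and 2 had an unadjusted p under 0.05. These were Lyz2, at 1.73 ± 0.46 (95% interval 0.76 to 2.71, adjusted p = 0.0712), and Cd68, at 1.57 ± 0.50 (0.51 to 2.63, adjusted p = 0.128). By edgeR p-value, Cd68 was in place 543 of the 11376 tested genes, and Mrc1, at an unadjusted p of 0.0682, in place 2326. The number of all tested genes with an unadjusted p under 0.05 thus lay between these places. The median difference of the 7 was 0.40, beside 0.01 over all tested genes. The differences of Mrc1 (0.87), Aif1 (0.40), Cd14 (0.29), Csf1r (0.22) and Cd163 (-0.05) were smaller, and the interval of Cd163 ran from -0.97 to 0.86. DESeq2 called 2 of the 7, Lyz2 (adjusted p = 0.00529) and Cd68 (0.0328), beside 4.67% of all genes it tested, and limma-voom 0 of the 7, beside 2.44%. Without MI 1 the same pair was called in edgeR, Cd68 at 2.14 (0.0176) and Lyz2 at 2.07 (0.0175), where 10.9% of all tested genes were called. Without the low-detection libraries 0 were called, with Cd68 at 0.61 and Lyz2 at 1.05. The MI libraries are shared by both gel comparisons.

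**Figure D3:**
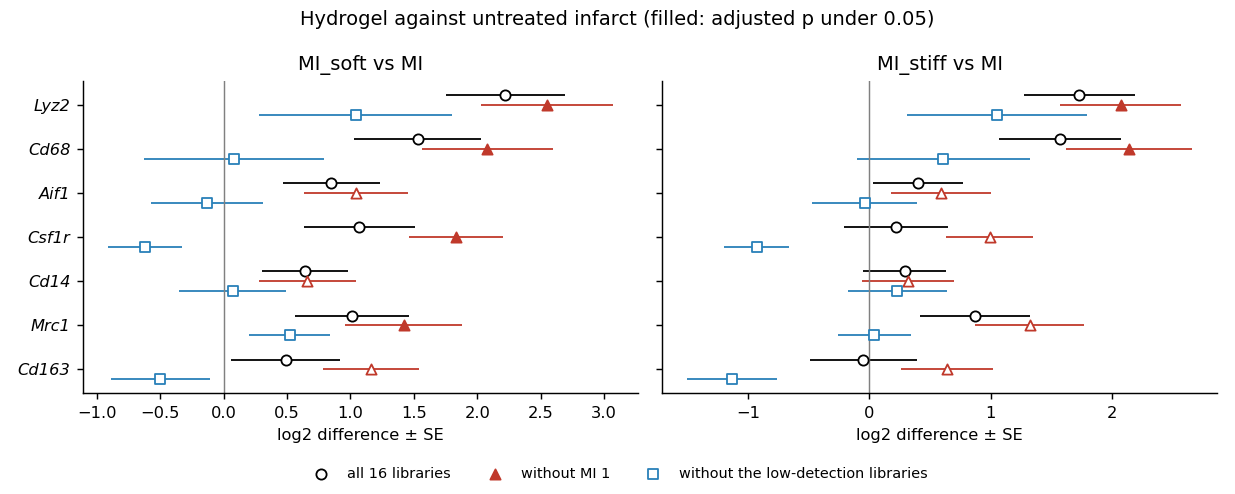
Log2 difference ± SE of each marker in MI_soft (left) and MI_stiff (right) against MI in all 16 libraries (circles), without MI 1 (triangles) and without the 4 low-detection libraries (squares); filled symbols have an edgeR adjusted p under 0.05. Points without MI 1 lie to the right of those from all libraries, and the squares lie to the left, down to -0.93 for Csf1r and -1.13 for Cd163 in MI_stiff.

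Between stiff and soft gel, 0 of 7 members were called by edgeR, with 0.0967% of all tested genes called, and 0 had an unadjusted p under 0.05. The smallest unadjusted p, 0.0663 for Csf1r, was in place 1962 of the 11376 tested genes. DESeq2 and limma-voom also called 0. Fitted differences, MI_stiff minus MI_soft, ran from -0.85 ± 0.44 for Csf1r (95% interval -1.76 to 0.06) to 0.04 ± 0.49 for Cd68 (-0.99 to 1.07). The intervals of Lyz2 (-1.44 to 0.46), Cd14 (-1.06 to 0.36), Aif1 (-1.23 to 0.33), Mrc1 (-1.07 to 0.79) and Cd163 (-1.46 to 0.37) each held 0. All 7 intervals reach past 1 log2 unit in one direction, so these data do not show that the gels act alike.

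Ratios between members are given as a description, each level divided by that of Cd68 in the same library. The Mrc1 to Cd68 TPM ratio was 0.576 to 0.84 in Sham and lower in every ligated library, at 0.187 to 0.352 in MI, 0.0158 to 0.433 in MI_soft and 0.111 to 0.284 in MI_stiff. Cd163 to Cd68 went from 0.231 to 0.416 in Sham to 0.0504 to 0.184 in MI, 0.0282 to 0.126 in MI_soft and 0.0236 to 0.178 in MI_stiff. Csf1r to Cd68 was 1.91 to 2.65 in Sham, 0.863 to 1.48 in MI, 0.692 to 1.001 in MI_soft and 0.284 to 1.07 in MI_stiff. These 3 ratios did not overlap Sham in any ligated group, but since Cd68 itself rose, 74.7%, 93.3% and 92.4% of all other tested genes had a wholly lower ratio in MI, MI_soft and MI_stiff. The Cd14 ratio was 0.747 to 1.76 in Sham, overlapped by MI (0.579 to 2.18) and MI_soft (0.44 to 0.787) and not by MI_stiff (0.348 to 0.655). The Aif1 ratio was 1.74 to 3.66 in Sham, overlapped by MI (1.62 to 5.58) and MI_stiff (0.503 to 2.0) and not by MI_soft (1.28 to 1.7). The Lyz2 to Cd68 ratio overlapped across all groups, with medians of 16.1, 15.2, 22.8 and 15.03 in Sham, MI, MI_soft and MI_stiff. Lyz2 made up 55.3% to 87.1% of the summed TPM of the 7 members, so their sum, 62.5 to 87.29 TPM in Sham, 247 to 982.9 in MI, 1154 to 2351 in MI_soft and 355.4 to 1969 in MI_stiff, follows Lyz2 most closely.

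**Figure D4:**
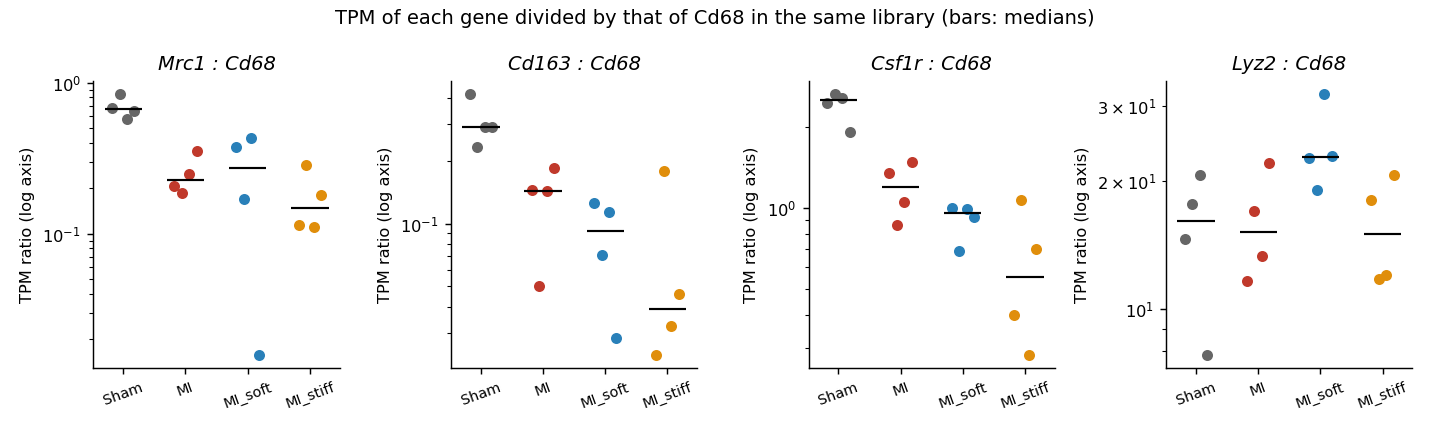
TPM of Mrc1, Cd163, Csf1r and Lyz2 divided by the TPM of Cd68 in the same library, on log axes; points are libraries and bars are group medians. The first 3 ratios are lower in every ligated library than in every Sham library, and the Lyz2 ratio overlaps between groups.

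Likeness of pattern across the 16 libraries was measured as the root mean square difference of log2 CPM (counts scaled to a common total, prior count 2) after centring each gene on its own mean. The points share library, depth and group, so the values are a description. Of 11375 other genes, Cd68 was the nearest to Lyz2 and Lyz2 the 2nd nearest to Cd68 (0.487), and Cd14 was the nearest to Aif1 (0.353). Csf1r was the 25th nearest to Aif1 and the 49th nearest to Cd163. Cd163 was in place 90 for Mrc1, while Lyz2 was in place 9565 for Mrc1 and 9566 for Cd163. Seen from Lyz2, whose own values vary more, Mrc1 was in place 745 and Cd163 in place 638. Outside the set, the genes nearest to Cd68 were Arl11 (0.477) and Lgals3 (0.549), which encodes galectin-3, a lectin of activated macrophages. Slamf9 (0.584) and Lgals3 (0.633) were nearest to Lyz2, Ripk3 (0.288) and Capg (0.34) to Cd14, and Cd37 (0.234) and Pld4 (0.291) to Csf1r. Aif1 had C1qtnf6 (0.405) and Pld4 (0.447) as nearest genes, and Cd163 had Stab1 (0.389), another scavenger receptor, and Rassf2 (0.393). Mrc1 had Slc2a10 (0.522) and Tiam1 (0.526).

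**Figure D5:**
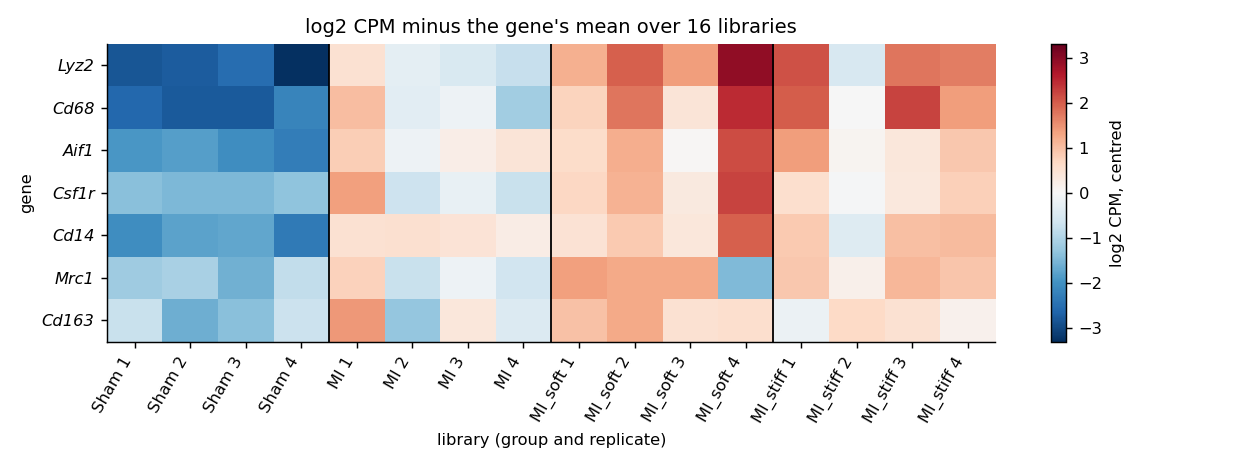
Log2 CPM of the 7 markers in each of the 16 libraries after subtracting the gene's mean over all libraries, in red where above and blue where below; columns are libraries in group order. Sham is below the mean for all markers, MI_soft 4 is highest for Lyz2 and Cd68 but low for Mrc1, and MI_stiff 2 is near or below the mean for most markers.

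Genes that act with the members were taken from lists drawn up by function. The CSF1 receptor's ligands and the lineage regulators had 10 tested genes of 13 listed, of which 5, 5 and 4 rose in MI, MI_soft and MI_stiff against Sham and 0 fell. Without MI 1 the counts were 5 higher and 2 lower in MI, 7 higher in MI_soft and 7 higher in MI_stiff. In that setting 2293 of 11528 tested genes were higher and 2476 lower in MI. In MI_soft 1864 were higher and in MI_stiff 1563. Spi1, which encodes PU.1, had mean levels (± SD, n = 4) of 2.22 ± 0.442 TPM for Sham, 10.6 ± 10.7 for MI, 22.7 ± 10.1 for MI_soft and 24.9 ± 10.95 for MI_stiff. It rose by 2.02 ± 0.53 in MI (edgeR adjusted p = 0.0072; 1.43 and 0.0352 without MI 1), 3.38 ± 0.56 in MI_soft (0.000276) and 3.17 ± 0.55 in MI_stiff (0.000551). Both ligands were called in all 3 groups: Csf1 rose by 1.59, 1.41 and 1.39 on the log2 scale in MI, MI_soft and MI_stiff, and Il34 by 1.77, 1.54 and 1.23. These ligands were picked out after their values were seen, as the partners of Csf1r, and the Il34 call in MI_stiff was lost without Sham 2 (adjusted p = 0.0523).

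The pathway of CD14 and Toll-like receptor 4 had 9 tested genes of 12 listed, of which 7 rose and 1 fell in MI, 5 rose in MI_soft and 5 in MI_stiff. Without MI 1, 5 rose and 1 fell in MI, beside 2293 and 2476 of 11528 tested genes. The gene that fell with all 16 libraries was Traf6, at -2.46 ± 0.74 on the log2 scale in MI (edgeR adjusted p = 0.0147). Its mean level was low, 1.43 TPM in Sham and 0.288 in MI, and the call did not hold in every alternative run. It was not called in MI_soft (-1.63) or MI_stiff (-0.53). Lbp, whose product carries lipopolysaccharide to CD14, went from a mean of 3.10 ± 0.541 TPM (SD, n = 4) for Sham to 34.3 ± 9.95 for MI, 60.5 ± 25.1 for MI_soft and 81.5 ± 32.9 for MI_stiff, log2 differences of 3.43 ± 0.39, 4.22 ± 0.40 and 4.42 ± 0.41 (edgeR adjusted p = 5.52e-06, 1.5e-06 and 1.95e-06). Tlr2, a Toll-like receptor that also works with CD14, rose by 1.45 in MI (0.0112) and by 1.79 in both gel groups (0.00418 and 0.00504).

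Many other myeloid genes also rose over Sham, though not all. Of 19 tested pan-myeloid genes, 11 rose and 1 fell in MI, 15 rose and 1 fell in MI_soft, and 18 rose and 1 fell in MI_stiff, with median log2 differences of 1.68, 3 and 2.54. The other 7 in MI and 3 in MI_soft were not called. The MI counts rested largely on MI 1: without it 5 rose and 1 fell, with a median of 0.91, and the counts in the gel groups were the same as above. In that setting 2293 of 11528 tested genes rose and 2476 fell in MI. The summed level of the list was 1722 TPM in MI 1 against 445.9, 283.9 and 264.6 TPM in MI 2, MI 3 and MI 4, and 157.4 to 220.8 TPM in Sham. C1qc, a chain of complement C1q made mainly by macrophages, rose by 2.47 ± 0.46 in MI (edgeR adjusted p = 0.000518), 3.58 ± 0.48 in MI_soft (4.22e-05) and 2.4 ± 0.46 in MI_stiff (0.00113). C1qb, another C1q chain, rose by 2.06 ± 0.49 in MI (0.00381), 3.86 ± 0.53 in MI_soft (5.32e-05) and 2.47 ± 0.5 in MI_stiff (0.00185). Fcgr3a, an activating receptor for IgG, rose by 4.20 ± 0.96 in MI_soft (0.00394) and by 4.66 ± 0.98 in MI_stiff (0.00244). In MI it was not called (1.68 ± 0.92, edgeR adjusted p = 0.161). The gene that fell in each was Ncf1, a subunit of the phagocyte NADPH oxidase, by 1.36, 0.63 and 0.85 in MI, MI_soft and MI_stiff. Its MI call held without any single library, the MI_soft call (edgeR adjusted p = 0.0496) was lost without any 1 of 8 libraries, among them Sham 2 (0.15) and Sham 3 (0.142), and the MI_stiff call was lost without Sham 3 (0.0575).

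Genes usually assigned to resident cardiac macrophages rose in 5 of 9 cases in MI, 6 of 9 in MI_soft and 7 of 9 in MI_stiff, and genes of recruited monocytes in 5 of 7 cases in each. Without MI 1, 3 of 9 resident genes rose in MI with a median difference of 0.64 in place of 1.8, and 4 of 7 recruited genes rose and 2 fell. Over all 11528 genes tested in that setting, 2293 rose and 2476 fell in MI. Lyve1, a hyaluronan receptor of resident macrophages that lymphatic vessels also make, stood at 3.37 ± 0.623 TPM in Sham and 30.2 ± 15.3 in MI (SD, n = 4), a log2 difference of 3.02 ± 0.24 (edgeR adjusted p = 2.27e-07). It also rose by 2.84 ± 0.24 in MI_soft (5.2e-07) and by 2.15 ± 0.23 in MI_stiff (7.75e-06). Clec10a, a lectin of macrophages and dendritic cells, rose by 2.44 ± 0.26 in MI (3.39e-06), 2.93 ± 0.27 in MI_soft (9.81e-07) and 2.66 ± 0.26 in MI_stiff (3.38e-06). Plac8, a monocyte gene, rose by 3.31 ± 0.49, 3.40 ± 0.49 and 2.82 ± 0.48 in MI, MI_soft and MI_stiff (7.8e-05, 8.9e-05 and 0.000489). Both lists held genes that rose in every ligated group, and which cells carried them was not measured.

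Around the scavenger receptors, 7 of 13 genes of haemoglobin and scavenger handling rose in each of MI, MI_soft and MI_stiff against Sham. Without MI 1, 5 rose in MI, beside 2293 of 11528 tested genes. Ftl1, the ferritin light chain that stores iron, rose by 1.74 ± 0.46 in MI (edgeR adjusted p = 0.00758) and by 2.66 ± 0.48 in MI_soft (0.000611). Hmox1 encodes haem oxygenase, which breaks down haem after uptake through CD163. Its levels were 8.43, 3.86, 5.23 and 3.97 TPM in Sham, 30.5, 16.29, 8.58 and 18.67 in MI, 31.48, 30.66, 23.29 and 11.28 in MI_soft, and 77.44, 53.07, 73.08 and 76.9 in MI_stiff. Every MI_stiff library was above every other library. Hmox1 was 1.90 ± 0.28 higher in MI_stiff than in MI on the log2 scale (edgeR adjusted p = 0.00676), and this call held in every alternative run. It was the one gene of its list called between gel-treated and untreated infarct.

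Of the other myeloid genes, Itgb2, the shared chain of the leukocyte integrins, and Cd53, a leukocyte tetraspanin, were called higher in MI_stiff than in MI (2.82 ± 0.62 and 1.71 ± 0.39, edgeR adjusted p = 0.0387 and 0.0407). Both calls were lost when any 1 of 13 libraries was left out, and they held without MI 1, MI_soft 4 or MI_stiff 2. With all 16 libraries the lists held no other gene called between ligated groups, apart from Tagln and Cnn1, genes of contractile smooth muscle that were lower in MI_stiff than in MI, calls that were lost without any 1 of 12 and of 13 libraries. Without MI 1, 13 of 19 pan-myeloid genes were higher than in MI in each gel group. In that setting 912 of 11528 tested genes were higher in MI_soft and 818 in MI_stiff. With all 16 libraries, 0 of the 19 pan-myeloid genes were higher in MI_soft than in MI and 2 in MI_stiff. The list's summed level in MI 1, 1722 TPM, lay within the MI_soft range (1037 to 2405) and above every MI_stiff library (452 to 1540). In MI 2, MI 3 and MI 4 (445.9, 283.9 and 264.6 TPM) it lay below every gel-treated library.

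Markers of other cell types were read beside the members. Neutrophils, which also express Lyz2, Cd14 and Cd68, had 6 listed markers with a row and 3 that passed the filter, of which 0 were called against Sham in any group (0, 1 and 0 with an unadjusted p under 0.05 in MI, MI_soft and MI_stiff). An unadjusted edgeR p under 0.05 against Sham was found for 5275 of all 11376 tested genes in MI, 4387 in MI_soft and at least 2082 in MI_stiff. The summed level of the neutrophil markers was 12.02 to 16.56 TPM in Sham, 3.8 to 58.24 in MI, 14.85 to 65.42 in MI_soft and 9.55 to 50.14 in MI_stiff. Without MI 1, 1 of the 3 was lower in MI than in Sham, as were 2476 of 11528 tested genes. In the low-detection libraries MI 2, MI 3 and MI 4 the sum was 3.8, 6.3 and 5.96 TPM. Mpo, a granule enzyme of neutrophils, was listed at 0 in 13 of 16 libraries with a maximum of 0.31 TPM. Of 6 lymphocyte markers, 4 rose in MI_soft and 0 in MI or MI_stiff by edgeR (1 and 0 with an unadjusted p under 0.05), with sums of 1.32 to 4.19 TPM in Sham, 1.47 to 16.11 in MI, 5.07 to 46.4 in MI_soft and 1.02 to 7.1 in MI_stiff. Without MI 1, 1 of the lymphocyte markers rose in MI, as did 2293 of 11528 tested genes. Fibroblast markers rose in 6, 5 and 5 of 6 cases and cardiomyocyte markers fell in 5, 5 and 6 of 7. Both smooth muscle markers tested rose in MI (Tagln by 3.73 and Cnn1 by 4.85 on the log2 scale) and in MI_soft (3.32 and 4.21), more than any member in MI, and in MI_stiff Tagln rose by 1.88 while Cnn1, at 1.90, was not called (edgeR adjusted p = 0.0653). Fibroblast sums were 566.3 to 683.9 TPM in Sham and 1406 to 3997 in the ligated groups. The part of these shifts in the marker differences was not tested.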

How the data were processed

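The libraries were made, per the labels' protocols, from mRNA purified from column-isolated total RNA, with a NEBNext kit, and sequenced on an Illumina instrument. The authors deposited expected counts per gene and TPM for the same 17085 genes. The submitters' processing notes name STAR 2.7.3a, RSEM 1.3.1 and the genome build rn7; no source used here gives the annotation or the strand setting, so reads of overlapping or antisense genes cannot be separated. Rounding to whole numbers changed 0.785% of the deposited expected counts. The deposited TPM summed to 964125 to 979120 per library.

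Genes were filtered with edgeR's filter by expression, scaled with TMM and tested with edgeR 4.0.16 (R 4.3.3; robust quasi-likelihood, 1 coefficient per group, 16 libraries), with Benjamini-Hochberg adjustment over 11376 genes. The common biological coefficient of variation was 0.403. The test was checked on simulated counts. DESeq2 1.42.0, limma 3.58.1 (voom, and log2 of TPM plus a pseudocount), other scaling and filtering, a replicate block and left-out libraries were alternatives. Members and lists were chosen with earlier results of these data known. Beyond the members, genes were named from each list and comparison among up to 2 called genes of largest difference in each direction, and for likeness the 2 nearest genes per member. Csf1, Il34, the per-library values of Hmox1 and the values of some named genes in further groups were added after values were seen. No member had counts identical to another gene.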

Additional observations from a re-analysis of the deposited data

Results flagged for a closer look

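In each group of 4 libraries, the highest and the lowest log2 CPM of each member were compared with the nearest other library, against Dixon's 95% critical value for the gap divided by the range. Of 28 such groups 3 passed, and chance alone flags about 1 in 20. Mrc1 in MI_soft 4 was 3.31, against 6.03 to 6.15 in the other MI_soft libraries, a gap of 0.958 of the range. Cd14 in MI_stiff 2 was 4.49, against 5.79 to 5.96 in the other MI_stiff libraries (0.882), and Lyz2 in the same library was 8.22, against 10.44 to 10.85 (0.844). MI_soft 4 is 1 of the 4 low-detection libraries, and MI_stiff 2, with 12259 genes detected, is not.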

How the results depend on the processing

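Each result was recomputed under 26 other settings. In the comparisons with Sham no member reversed. The number of members called stayed at 4 to 7 of 7 in MI, 7 in MI_soft and 6 to 7 in MI_stiff when single libraries were left out. In MI_soft against MI the count moved from 0 to 1 with DESeq2, 2 with limma-voom and sample weights, and 0 to 4 without single libraries (4 without MI 1, 1 without MI_stiff 2). In MI_stiff against MI it moved to 2 with DESeq2 and 0 to 2 without single libraries (2 without MI 1, 1 without MI_soft 4, 1 without MI_stiff 2), and in MI_stiff against MI_soft it stayed at 0. Over all tested genes, calls in MI_soft against MI ran from 0 to 1508 around 3, the 1508 without MI 1, in MI_stiff against MI from 11 to 1253 around 135, and in MI_stiff against MI_soft from 3 to 513 around 11. MI against Sham gave 3297 to 5105 calls around 4165, MI_soft against Sham 2132 to 6135 around 2965, and MI_stiff against Sham 1690 to 5195 around 2410. The causes were not tested.

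With the replicate number as a block, 6, 7 and 7 members were called against Sham and 0 in each comparison among ligated groups, so no count of members changed; over all tested genes the last 3 comparisons gave 0, 34 and 3 calls. The 24 correlations between same-numbered libraries ran from -0.285 to 0.176, with 5 over 0.1, so the numbers were not taken to pair the libraries. The block turned Cd163 in MI_stiff against MI to 0.13 and Cd68 in MI_stiff against MI_soft to -0.04.

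Differences that changed sign were all uncalled. Without the low-detection libraries they were -0.13 for Aif1, -0.5 for Cd163 and -0.62 for Csf1r in MI_soft against MI, and -0.04 for Aif1 and -0.93 for Csf1r in MI_stiff against MI. Cd163 in MI_stiff against MI turned to 0.53 on log2(TPM + 0.1), 0.3 on log2(TPM + 1), 0.4 with limma-voom, 0.64 without MI 1, 0.09 without MI_stiff 1 and 0.03 without MI_stiff 4, and over all single libraries left out it ran from -0.32 to 0.64. In MI_stiff against MI_soft, limma-voom gave 0.05 for Aif1 and 0.1 for Cd14. Leaving out MI_soft 4 gave 0.09 for Aif1, 0.16 for Cd14 and 0.01 for Lyz2, and leaving out all low-detection libraries 0.09, 0.15 and 0.01. Over single libraries left out, the lowest values were -0.73 for Aif1, -0.53 for Cd14 and -0.74 for Lyz2. Cd68 there was -0.16 without MI_soft 1, -0.2 without MI_soft 3, -0.11 without MI_stiff 1 and -0.25 without MI_stiff 3, and it was 0.54 without MI_soft 4. Mrc1 was 0.34 on log2(TPM + 0.1), 0.23 on log2(TPM + 1), 0.03 without MI_soft 1 and 0.05 without MI_stiff 2, and it was -0.47 without MI_soft 4.

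Against Sham, Cd163 also lost its call in MI with limma-voom (adjusted p = 0.106), with only those groups in the fit (0.0633) and on log2 TPM (0.155 and 0.15), and in MI_stiff on log2 TPM (0.0579 and 0.0644). Mrc1 lost its call in MI_soft on log2(TPM + 0.1) (0.0528) and gained one in MI with only those groups (0.0399). Without the low-detection libraries its MI difference was 1.94, but MI 1, its highest MI library, was then the only one of its group, so that value rests on 1 library. Counts of called genes in the functional lists without MI 1, MI_soft 4, MI_stiff 2 or the low-detection libraries were added after the data were seen.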
